A study of Mus musculus with 4 samples.

Results

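The 42 genes described here encode the subunits and enzymes of the Polycomb and trithorax systems and of DNA methylation. They were taken by name as a list of chromatin regulators, by a rule that uses no measured value, though with earlier results of these data known, out of 20656 genes with a named probe on the array. A probe was matched to 41 of them through its RefSeq accession, 63 probes in all, and Kmt2a was matched to none. Expression was measured in mouse EB5 embryonic stem cells carrying an RFP reporter of Hoxb6, a posterior Hox gene, after 6 days of differentiation on a feeder layer of OP9 cells, which are stromal cells from mouse bone marrow. The cells were sorted with an antibody to Flk-1 (a VEGF receptor of early mesoderm and vessels, the product of Kdr) and by the reporter. The RFP-negative group was the Flk-1-positive, reporter-negative fraction and the RFP-positive group the Flk-1-positive, reporter-positive fraction, each hybridised to 2 one-colour arrays. Both groups share the line, the reporter, the feeder and the day, and the labels give neither the construct's promoter nor the number of clones. The labels do not say that replicates came from separate cultures, so p-values measure the spread between these samples, which may be technical.

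Polycomb repressive complex 2 (PRC2) methylates histone H3 on the lysine that marks repressed developmental genes, and Polycomb repressive complex 1 (PRC1) reads that mark and adds ubiquitin to histone H2A. Trithorax proteins methylate another lysine of histone H3 and keep genes active, and the Hox clusters are the classical targets of both systems. DNA methyltransferases add methyl groups to cytosine in CpG dinucleotides, and TET enzymes oxidise them.

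All levels below are log2 signals relative to the 75th percentile of the array's own spots, a difference is the RFP-positive mean minus the RFP-negative mean on that scale, and the error given with it is the standard error (SE) of the limma fit to 2 arrays a fraction. Levels of different genes are not compared, because each probe has its own brightness. The scanner marks each spot as well above background or not, and a gene is called measured on an array where its probe has that mark. Kdr was measured on all 4 arrays, at 4.18 and 4.33 in RFP-negative cells against 4.41 and 4.36 in RFP-positive ones. Hoxb6 itself was measured on no array, so that its transcript gives no check of the reporter sort. Between 55.2% and 59.3% of the spots of an array were well above background. Across genes, RFP-positive replicate 2 stood apart, with a correlation of 0.964 to the other array of its fraction. At the lowest, its correlation to an RFP-negative array was 0.950. The 2 RFP-negative arrays correlated at 0.980. The highest correlation between arrays of different fractions was 0.982, above that of either replicate pair, so the arrays did not group by fraction.

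Of the 42 genes, 39 were tested, 38 of them measured on all 4 arrays and Phf19 on 3. Dnmt3l, the catalytically inactive partner of the de novo DNA methyltransferases, was measured only on replicate 1 of each fraction, at −2.61 (RFP-negative) and −3.54 (RFP-positive), and was not tested. Cbx8, a chromobox subunit of PRC1, was measured on no array.

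The comparison asked whether the 2 fractions differ in these regulators. Several were higher in RFP-positive cells, led by the PRC1 subunits Pcgf3 and Bmi1, the de novo DNA methyltransferase Dnmt3a and the PRC2 accessory subunit Mtf2, by 1.63-fold to 2.08-fold. Fewer were lower on their brightest probes, with Cbx7, Kdm6b, Kmt2d and Pcgf2 at 1.43-fold to 1.53-fold. Other probes of Kmt2d and Pcgf2 were higher without overlap. No regulator passed limma's test with Benjamini-Hochberg adjustment over 13432 genes (0 of 39, adjusted p 0.745 to 0.975), nor did any gene on the array (0%). At an unadjusted p under 0.05 the fit gave 4 of the 39 higher, Pcgf3, Mtf2, Dnmt3a and Bmi1, beside 2.77% of all genes, and 1 lower, Cbx7, beside 3.72%. With either RFP-negative array left out, 0 regulators were under it, and without RFP-positive replicate 2 they were Tet1, higher, and Kdm6b, lower. The limma fits with a trend, and with a trend and robust estimation, also called 0 genes.

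By order alone, 15 of 39 (38.5%) had both RFP-positive arrays above both RFP-negative arrays, beside 18.8% of all genes tested. A further 8 (20.5%) had both below, beside 21.6%, a share near that of all genes. With arrays scaled to their median in place of the 75th percentile, 18 were higher and 5 lower, beside 24.4% and 16.6%. With the probe of lowest identifier in place of the brightest, 12 were higher and 11 lower, beside 18.4% and 21.9%. No gene of the 39 had every RFP-positive array at least 2-fold from every RFP-negative array, where 0.469% of all genes were higher and 0.893% lower by that rule. The median difference was 0.16, against −0.05 over all genes tested. It depended on the probe chosen, at 0.16 with each gene's brightest probe, 0.04 with the mean of its probes and 0.02 with the probe of lowest identifier, and without RFP-positive replicate 2 it was 0.05.

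**Figure D1:**
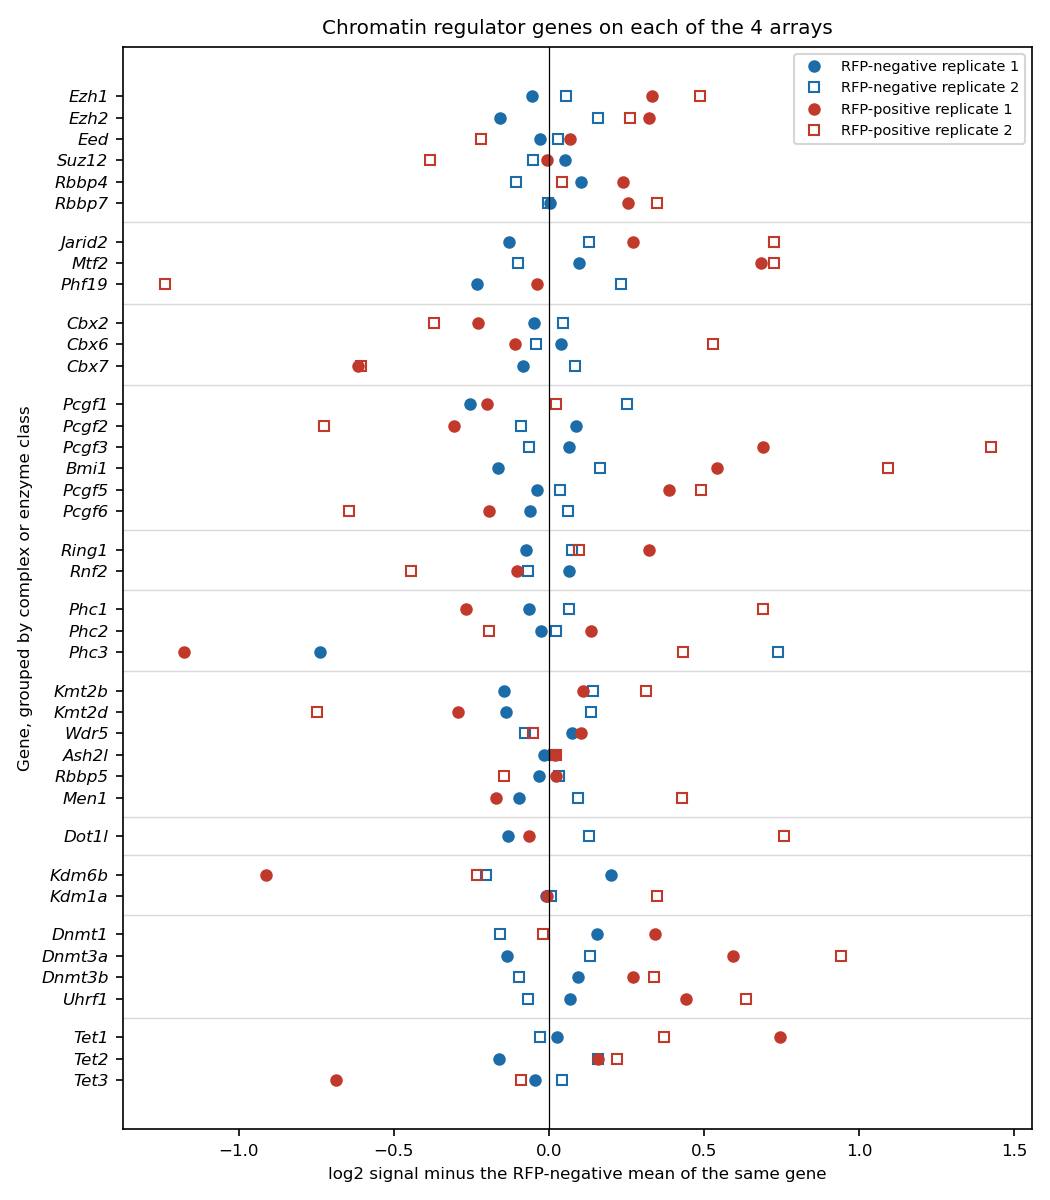
Log2 signal of each tested gene on the 4 arrays, as its distance from that gene's RFP-negative mean, with genes grouped by complex or enzyme class. Filled circles are replicate 1 and open squares replicate 2, blue RFP-negative and red RFP-positive; the red points of Pcgf3, Bmi1, Dnmt3a and Mtf2 lie to the right of both blue points, and those of Cbx7 to the left.

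The Pcgf proteins define the variants of PRC1, each pairing with a Ring E3 ligase, and the 6 genes of this family spread most widely. Pcgf3 was at 0.42 and 0.29 on RFP-negative replicates 1 and 2 and at 1.04 and 1.78 on RFP-positive replicates 1 and 2. Both RFP-positive arrays were higher, by 1.06 (SE 0.33, limma adjusted p 0.745), and the 2 RFP-positive arrays lay 0.73 apart. Bmi1, a core subunit of canonical PRC1, was at 0.28 and 0.61 in the RFP-negative fraction against 0.99 and 1.54 in the RFP-positive one, a difference of 0.82 (SE 0.30). Its dimmer probe was at −1.11 and −0.266 against −0.259 and −0.02, higher by 0.55. That probe is free of overlap only because its nearest arrays, at −0.266 and −0.259, do not quite tie. Pcgf5, the close paralogue of Pcgf3, which takes its place in another PRC1 variant, was at 0.65 and 0.72 against 1.07 and 1.18, higher by 0.44 (SE 0.23). The 2 Pcgf5 probes ordered the fractions the same way, the dimmer one with a difference of 0.26.

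Pcgf2, the close paralogue of Bmi1, was lower in RFP-positive cells on its brighter probe. Its values were 2.27 and 2.09 in RFP-negative cells against 1.88 and 1.46 in RFP-positive ones, a difference of −0.51 (SE 0.27). The dimmer Pcgf2 probe went the other way, at −0.95 and −1.48 against −0.85 and −0.42, a difference of 0.58. Both probes separated the fractions, in opposite directions. Pcgf6, a subunit of a PRC1 variant of germline genes, was at 1.04 and 1.16 against 0.91 and 0.46, a difference of −0.42 (SE 0.27). Pcgf1, of the variant complex that holds Kdm2b, overlapped between the fractions, with a difference of −0.09.

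The chromobox proteins bind methylated histone H3 for canonical PRC1. Cbx7 was at −2.38 and −2.22 in the RFP-negative fraction against −2.92 and −2.91 in the RFP-positive one, a difference of −0.61 (SE 0.23). It was −0.35 with normexp background correction, and its unadjusted limma p of 0.046 was 0.104 there and 0.190 in the fit with a trend. The 2 RFP-positive arrays lay 0.011 apart, and both were below the RFP-negative arrays. Cbx2, the chromobox protein that compacts chromatin, was at 1.46 and 1.55 against 1.27 and 1.13, a difference of −0.30 (SE 0.23). Cbx6 overlapped on its brightest probe, with a difference of 0.21, while its 2 dimmer probes were lower without overlap, with differences of −0.65 and −1.06. Of the E3 ligases, Ring1 was at −2.08 and −1.93 against −1.68 and −1.91, a difference of 0.21 (SE 0.24) with a gap of 0.023 between the nearest arrays. Rnf2, the main ligase in embryonic stem cells, was at 1.85 and 1.72 against 1.68 and 1.34, a difference of −0.27 (SE 0.25) with a gap of 0.037. Such gaps are smaller than the distance between arrays of the same fraction. The polyhomeotic genes Phc1, Phc2 and Phc3, whose proteins polymerise PRC1, all overlapped, and the Phc3 replicates lay 1.61 apart in RFP-positive cells.

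Promoter sequence is printed for the PRC1 genes with the highest and lowest differences on their brightest probes, although the dimmer Pcgf2 probe went the other way. It shows how much CpG, the dinucleotide that the enzymes of this list methylate or bind, lies before each start. The sequences are the 250 bases before the start, 5′ to 3′ on the gene's strand, from RefSeq on GRCm38.p6, with CG in capitals. Pcgf3 lies at chr5:108461009-108461258 on the plus strand, Bmi1 at chr2:18676768-18677017 on the plus strand, Cbx7 at chr15:79932647-79932896 on the minus strand and Pcgf2 at chr11:97699649-97699898 on the minus strand.
Pcgf3: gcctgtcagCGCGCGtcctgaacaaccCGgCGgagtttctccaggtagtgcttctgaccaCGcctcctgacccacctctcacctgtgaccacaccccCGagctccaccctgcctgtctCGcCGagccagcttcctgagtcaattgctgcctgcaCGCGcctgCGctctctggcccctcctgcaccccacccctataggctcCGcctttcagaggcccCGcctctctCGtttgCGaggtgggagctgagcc
Bmi1: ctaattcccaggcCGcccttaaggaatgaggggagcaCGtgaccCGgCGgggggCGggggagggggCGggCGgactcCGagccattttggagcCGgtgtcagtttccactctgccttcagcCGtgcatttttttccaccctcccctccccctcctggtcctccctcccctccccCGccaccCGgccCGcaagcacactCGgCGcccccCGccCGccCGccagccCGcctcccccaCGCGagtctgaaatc
Cbx7: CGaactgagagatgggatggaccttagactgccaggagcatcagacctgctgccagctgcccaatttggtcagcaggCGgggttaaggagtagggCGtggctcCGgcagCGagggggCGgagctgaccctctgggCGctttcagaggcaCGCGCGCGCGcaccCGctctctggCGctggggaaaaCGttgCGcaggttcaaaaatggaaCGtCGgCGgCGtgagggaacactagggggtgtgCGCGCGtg
Pcgf2: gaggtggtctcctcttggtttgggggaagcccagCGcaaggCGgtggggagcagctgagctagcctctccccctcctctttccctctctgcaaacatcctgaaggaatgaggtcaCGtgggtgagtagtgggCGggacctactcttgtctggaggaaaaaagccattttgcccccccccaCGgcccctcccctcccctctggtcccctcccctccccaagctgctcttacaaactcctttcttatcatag
The letters CG, which read the same on both strands, occurred 16 times in the Pcgf3, 21 times in the Bmi1, 23 times in the Cbx7 and 5 times in the Pcgf2 window. As many or more were found for 36.9%, 23.6%, 19.1% and 67.9% of 17491 protein-coding genes in the same order, with the richest window taken for a gene with several starts. Of the 42 regulators 37 had an entry, with a median of 22 CG per window against 11 over protein-coding genes, and 34 of them (91.9%) held at least 10, beside 53.1%. Those under 10 were Dnmt3l, Pcgf2 and Phc1. The median was 23 for regulators that were higher without overlap and 18.5 for those that were lower. These groups held 15 and 8 regulators, less those without an entry. The lower group included Pcgf2 and Kmt2d, whose other probes were higher without overlap. Whether the number of CG goes with the direction was not tested. Ash2l, Cbx2, Kdm6b, Kmt2b and Pcgf1 had no entry.

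Among the 9 PRC2 genes, 5 were higher without overlap and 0 lower, beside 18.8% and 21.6% of all genes tested, with a median difference of 0.29. Mtf2, a Polycomb-like protein that brings PRC2 to CpG islands, was at 2.83 and 2.63 in the RFP-negative fraction against 3.41 and 3.45 in the RFP-positive one, a difference of 0.70 (SE 0.23, limma adjusted p 0.745). Its arrays lay closer together within each fraction than between the fractions. A second Mtf2 probe, on another transcript accession, overlapped, with a difference of 0.09. Jarid2, a subunit of the other PRC2 subtype, was at 1.76 and 2.02 against 2.16 and 2.62, higher by 0.50 (SE 0.28). Phf19, the paralogue of Mtf2, was at −3.38 and −2.92 against −3.19 and −4.39, and the last of these was not well above background. The fractions overlapped, and the difference of −0.64 (SE 0.47) was −0.04 without RFP-positive replicate 2.

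The catalytic subunits were nearer to 0. Ezh2, the main methyltransferase of dividing cells, was at 1.66 and 1.98 against 2.15 and 2.08, a difference of 0.29 (SE 0.24). Ezh1, which predominates in resting cells, was at 2.62 and 2.73 against 3.01 and 3.17, a difference of 0.41 (SE 0.23). A second Ezh1 probe, nearly as bright, was at 2.17 and 2.28 against 2.19 and 1.30 and so had a difference of −0.48, and the third one of 0.81. Of the scaffold subunits, Eed and Suz12 overlapped, with differences of −0.07 and −0.19, and the sign for Eed turned under quantile normalization and under scaling to the median. The histone-binding subunit Rbbp7 was at 5.69 and 5.68 against 5.94 and 6.04, higher by 0.30 (SE 0.22). Rbbp4 overlapped on its brighter probe, at 6.22 and 6.01 against 6.35 and 6.15. Its dimmer probe was at 0.54 and 0.09 against −0.42 and −2.05, a difference of −1.55, the widest disagreement between probes of any gene in the list.

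**Figure D2:**
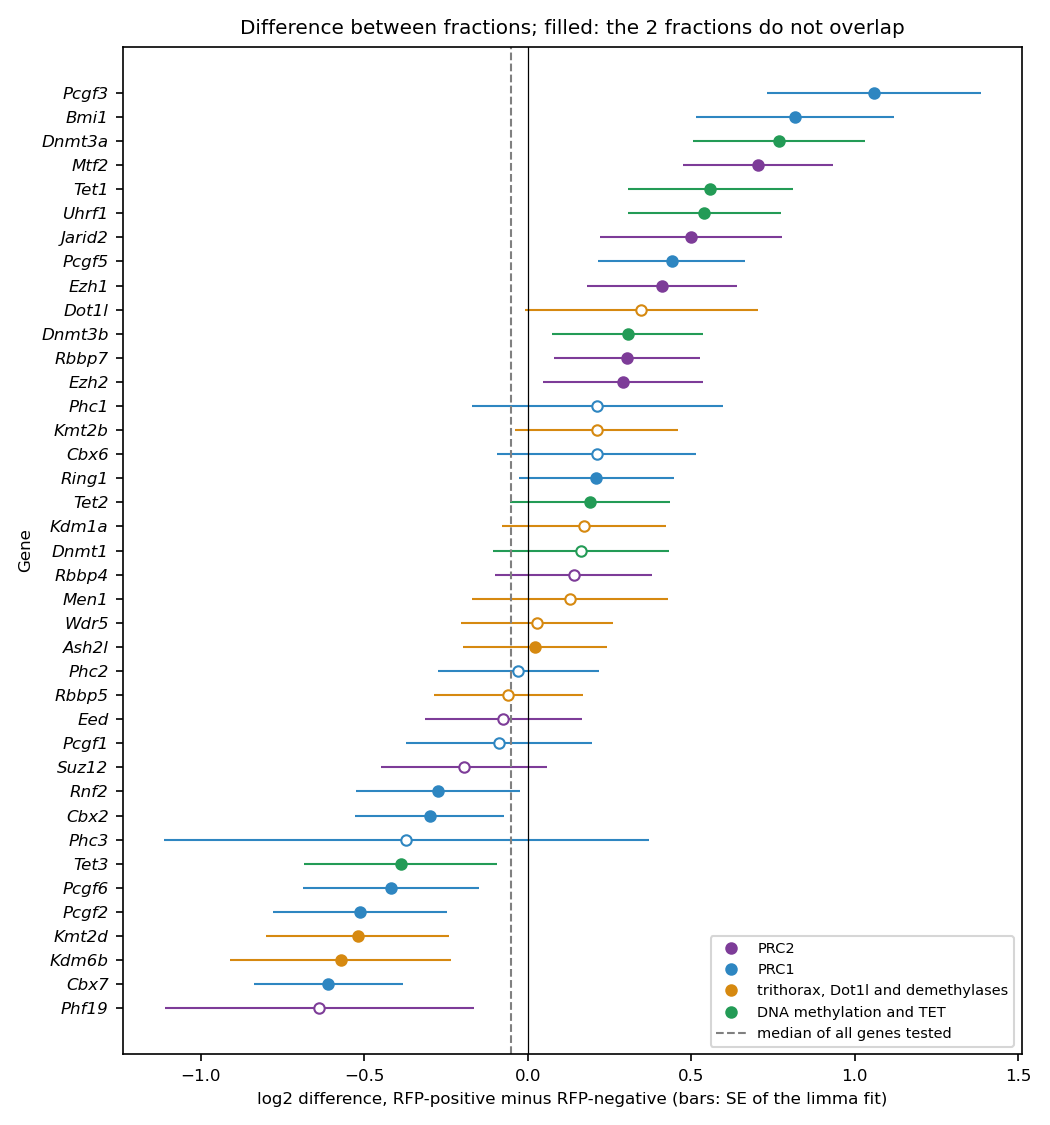
Difference between the fractions for the 39 tested genes on the log2 scale, with the SE of the limma fit as bars and colours for the 4 classes. Filled points mark genes whose arrays do not overlap between the fractions, from Pcgf3 at 1.06 to Cbx7 at −0.61; Phf19 at −0.64 is open.

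The 6 trithorax genes tested went both ways, from −0.52 for Kmt2d to 0.21 for Kmt2b, with a median difference of 0.02. Kmt2b, a methyltransferase of CpG-rich promoters, was at 0.91 and 1.20 against 1.16 and 1.37 and overlapped, with a difference of 0.21 (SE 0.25). Kmt2d, the methyltransferase of enhancers, was at 2.33 and 2.61 against 2.18 and 1.72 on its brightest probe, a difference of −0.52 (SE 0.28). Its other probes were higher without overlap, by 0.70 and 0.50. The shared core subunits Wdr5, Ash2l and Rbbp5 differed by 0.03, 0.02 and −0.06, the smallest differences of the list together with Phc2 at −0.03. Ash2l was counted as higher without overlap, but the nearest arrays of the fractions lay 0.005 apart. Rbbp5 and Phc2 turned sign under scaling to the median. Men1, the menin subunit, overlapped, with a difference of 0.13.

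Dot1l methylates histone H3 in the bodies of active genes. It was at −0.32 and −0.06 against −0.26 and 0.57, a difference of 0.35 (SE 0.36) that was −0.065 without RFP-positive replicate 2. Kdm6b, a demethylase that removes the Polycomb mark, was at 2.74 and 2.34 against 1.63 and 2.31, a difference of −0.57 (SE 0.34). RFP-positive replicate 1 was low, replicate 2 lay 0.032 below an RFP-negative array, and without replicate 1 the difference was −0.23. Kdm1a, a demethylase of the trithorax mark, was at 2.80 and 2.82 against 2.80 and 3.16, with a difference of 0.17 (SE 0.25).

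On their brightest probes the 4 DNA methylation genes tested had differences above 0, with a median of 0.42, and 3 were higher without overlap, beside 18.8% of all genes tested. Dnmt3b was at −0.085 with the mean of its probes. Dnmt3a was at 0.47 and 0.74 in the RFP-negative fraction against 1.20 and 1.55 in the RFP-positive one, higher by 0.77 (SE 0.26, limma adjusted p 0.745). Both RFP-positive arrays were above both RFP-negative arrays, by at least 0.46. Dnmt3b, the other de novo methyltransferase and the form that is abundant in early embryonic cells, was at 4.58 and 4.38 against 4.75 and 4.82, a difference of 0.31 (SE 0.23). Its other probes had differences of −0.38, without overlap, and −0.18. Uhrf1, which brings the maintenance enzyme to replicated DNA, was at 5.76 and 5.62 against 6.14 and 6.33, higher by 0.54 (SE 0.23). A second Uhrf1 probe overlapped, with a difference of 0.04. Dnmt1, the maintenance enzyme itself, was at 0.33 and 0.02 against 0.52 and 0.16 and overlapped, with a difference of 0.16 (SE 0.27).

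Of the TET genes, Tet1, the form of pluripotent and early embryonic cells, was at 1.20 and 1.14 against 1.91 and 1.54, higher by 0.56 (SE 0.25, limma adjusted p 0.745). Its dimmer probe was at −1.23 and −1.86 against −1.20 and −0.54, higher by 0.67, so that both probes separated the fractions the same way. Tet2 was at 2.43 and 2.75 against 2.75 and 2.81, a difference of 0.19 (SE 0.25) that counts as free of overlap only because the nearest arrays, both at 2.75, do not quite tie. Its dimmer probe was lower without overlap, with a difference of −0.30. Tet3 was at 0.46 and 0.55 against −0.18 and 0.41, a difference of −0.39 (SE 0.30) that was −0.089 without RFP-positive replicate 1. Another Tet3 probe, measured on all 4 arrays, overlapped, with a difference of 0.13.

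Because many of these genes belong to families of paralogues, differences were set side by side for 12 pairs chosen after their values were seen. The contrast of 2 differences on the same arrays does not change with a constant per array, such as the 75th percentile or the median, but does under quantile normalization and normexp. It did not overlap between the fractions for 8 of the 12. No such share was taken over other pairs of genes. Among single genes tested, 18.8% were higher and 21.6% lower without overlap. A single gene is another measure than a contrast of 2 genes, so 8 of 12 cannot be called an excess. With 2 arrays against 2, an exact two-sided permutation p cannot be below 0.333. Bmi1 exceeded Pcgf2 by 1.33 with the brightest probes, a contrast that the second Pcgf2 probe does not bear out, and by 0.85 without RFP-positive replicate 2. Mtf2 exceeded Phf19 by 1.34, but by 0.72 without RFP-positive replicate 2, on which Phf19 was not well above background. Tet1 exceeded Tet3 by 0.95, but by 0.46 without RFP-positive replicate 1. Ring1 exceeded Rnf2 by 0.48, and by 0.26 with normexp background correction. Kmt2b exceeded Kmt2d by 0.73, but the contrast was −0.014 with the mean of a gene's probes. The contrast of Cbx2 and Cbx7 was 0.31, and 0.10 with normexp background correction. Dnmt3a exceeded Dnmt3b by 0.46, a contrast that ran from 0.23 without RFP-negative replicate 1 to 1.15 with the probe of lowest identifier. The contrast of Ezh1 and Ezh2 was 0.12 and overlapped.

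Disagreement between probes of the same gene was frequent among these regulators. Of 16 genes with at least 2 probes well above background on all 4 arrays, 11 (68.8%) had probes with differences of opposite sign, beside 43% of 3231 such genes on the array. In 5 of them, Ash2l, Dnmt3b, Kmt2d, Pcgf2 and Tet2, probes separated the fractions without overlap in opposite directions (31.2%), beside 5.91% of all such genes. Genes with 3 or more such probes disagree more often, and 4 of the 16 had 3. Among the 12 with exactly 2 probes, 7 (58.3%) disagreed in sign and 3 (25%) without overlap, beside 39.3% and 4.48%. The median spread between a gene's probes was 0.51, against 0.34 for all such genes. Bmi1, Pcgf5, Tet1, Mtf2 and Uhrf1 were the 5 whose probes had 1 sign. Pcgf3, Dnmt3a, Cbx7, Jarid2 and Kdm6b had a single probe, so that no second measurement bears on them.

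**Figure D3:**
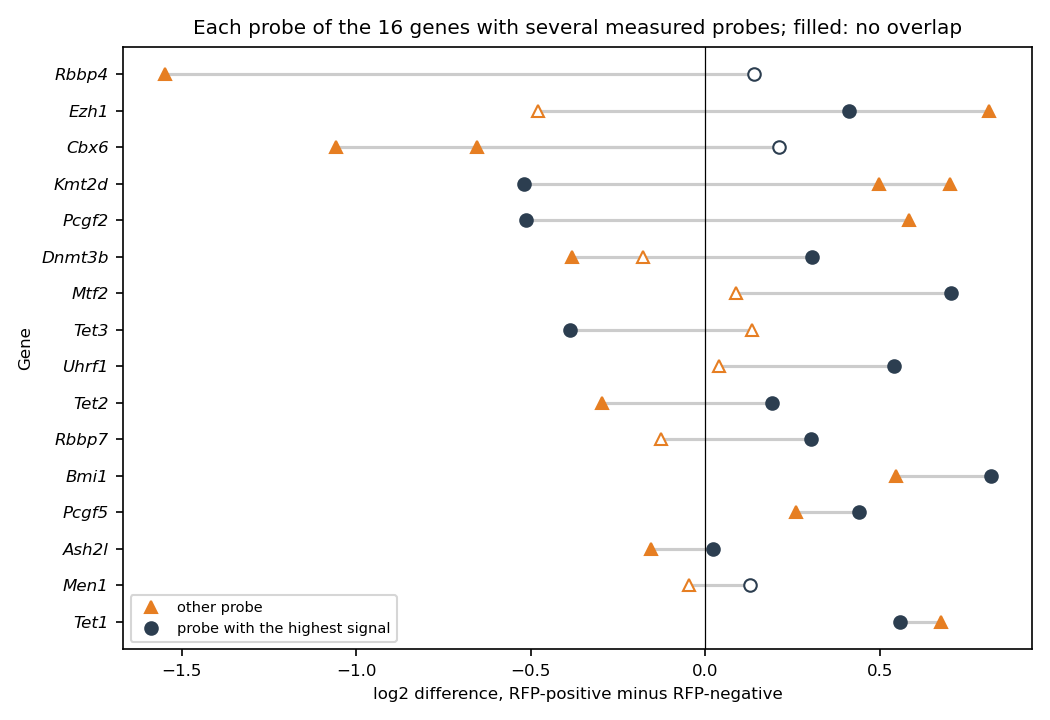
Difference between the fractions for every probe that was well above background on all 4 arrays, for the 16 genes with at least 2 such probes, on the log2 scale. Circles are each gene's brightest probe, triangles the others, and filled symbols mark probes whose arrays do not overlap between the fractions; the lines of 11 genes cross 0, and the widest, for Rbbp4, runs from −1.55 to 0.14.

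The distance between replicates limited these values. The 2 RFP-negative arrays lay a median of 0.15 apart over the 39 genes and the 2 RFP-positive arrays 0.34, against 0.25 and 0.38 over all genes tested. For 12 of the 39 the RFP-positive arrays lay on opposite sides of the RFP-negative mean, and for 12 the sign turned when 1 of the arrays was left out. Several differences were smaller without RFP-positive replicate 2, at 0.69 for Pcgf3, 0.54 for Bmi1, 0.27 for Jarid2, −0.19 for Pcgf6, −0.30 for Pcgf2 and −0.29 for Kmt2d. The median over the regulators was 0.07 above the RFP-negative mean on RFP-positive replicate 1 and 0.22 above it on replicate 2, while over all genes it was 0.01 and −0.10.

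Markers of other cell types moved between the same fractions. Beside the counts below, 18.8% of all genes tested were higher and 21.6% lower without overlap. In sorted bulk samples, fewer cells of a type and less RNA per cell cannot be told apart. Of 11 adipocyte markers, all of them tested, 10 were lower without overlap in RFP-positive cells, with a median difference of −1.63. Their summed signal, relative to the 75th percentile, was 51.6 and 63.0 in the RFP-negative fraction against 21.9 and 16.3 in the RFP-positive one. Of 15 markers of OP9 stroma and fibroblasts, 13 were tested and 9 were lower without overlap, with a median of −0.84 and summed signals of 78.4 and 126.6 against 65.6 and 53.8. Dcn and Postn were measured on no array. Blood markers had a median of 0.56 over 9 tested and summed signals of 15.5 and 15.4 against 20.9 and 16.8, with Gfi1b measured on no array. Endothelial and Flk-1 mesoderm markers had a median of 0.32 over 12, with 7 higher and 0 lower without overlap. Endoderm and epithelial markers had a median of −0.22 over 7, with 0 higher and 3 lower without overlap. Their medians against the RFP-negative mean were −0.62 and −0.53 on RFP-positive replicates 1 and 2. Afp, Apoa1 and Hnf4a were measured on no array. Pluripotency markers had a median of −0.31 over 9, with 1 higher and 2 lower without overlap, and Zfp42 was measured on no array. The part of these in the differences of the chromatin regulators was not tested.

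Uhrf1, Dnmt1 and Ezh2 are induced in dividing cells, so cell cycle genes were read beside them. Of all genes tested, 18.8% were higher and 21.6% lower without overlap. S phase genes had a median difference of −0.05 over 20 tested, 5 higher and 2 lower without overlap, and summed signals of 545.1 and 498.3 in the RFP-negative fraction against 559.9 and 518.1 in the RFP-positive one, which overlap. G2/M genes had a median of −0.24 over 14, with 1 higher and 8 lower without overlap and summed signals of 249.3 and 236.1 against 221.5 and 182.1. The part of the cell cycle in the values of Uhrf1, Dnmt1 and Ezh2 was not tested.

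**Figure D4:**
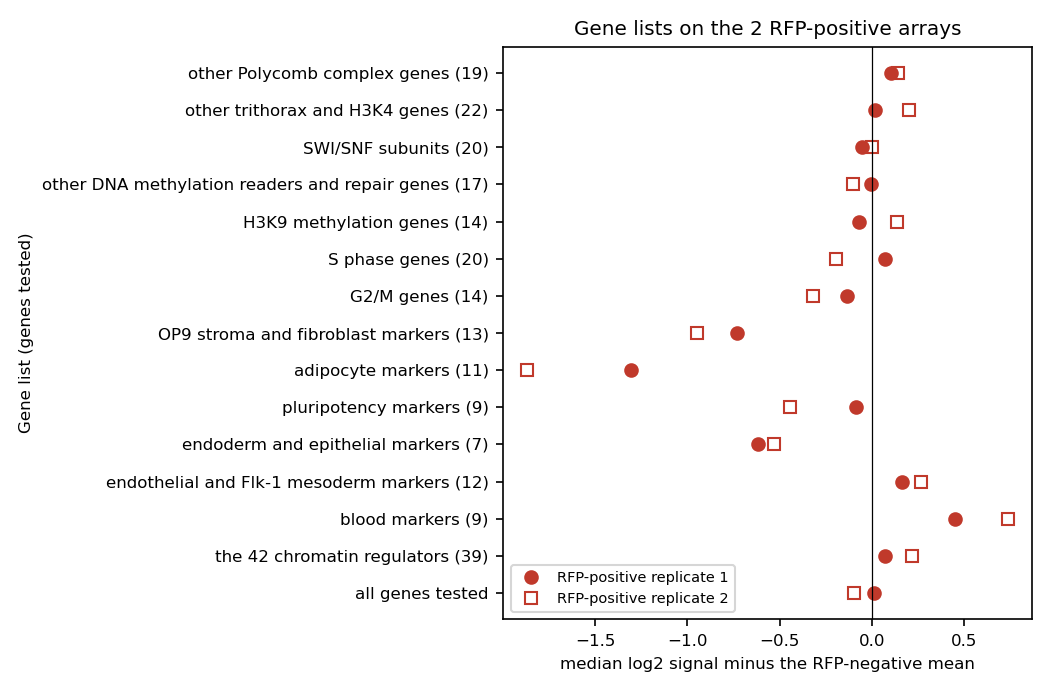
Median over each gene list of the log2 signal on the RFP-positive arrays, relative to the gene's RFP-negative mean, with the number of genes tested in brackets. The adipocyte markers lie farthest below 0 and the chromatin regulators at 0.07 and 0.22.

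The wider pathway was read from lists of related genes. Beside the counts below, 18.8% of all genes tested were higher and 21.6% lower without overlap. At an unadjusted limma p under 0.05 these shares were 2.77% and 3.72%. Of 19 other Polycomb complex genes tested, 8 were higher and 3 lower without overlap, with a median difference of 0.12, and limma called 0 after adjustment, with 2 higher and 1 lower at an unadjusted p under 0.05. Asxl2, a subunit of the complex that removes ubiquitin from histone H2A, was at 2.91 and 3.07 against 3.74 and 3.999, higher by 0.88 (SE 0.24, limma adjusted p 0.724). Phf1, the third Polycomb-like protein beside Mtf2 and Phf19, was at −1.28 and −1.65 against −2.31 and −2.45, a difference of −0.92 (SE 0.26, limma adjusted p 0.724). Of 22 other trithorax genes tested, 4 were higher and 3 lower without overlap, with a median of 0.09, 0 calls after adjustment and 1 at an unadjusted p under 0.05. Hcfc1, a shared cofactor of the methyltransferases, was at 5.12 and 5.09 against 5.58 and 5.96, higher by 0.67 (SE 0.25). Of 17 other genes of DNA methylation reading and repair tested, 1 was higher and 4 were lower without overlap, with a median of −0.12 and 0 at either threshold. Among them Mbd1, a reader of methylated DNA, was at −1.52 and −1.76 against −1.88 and −3.21.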

How the data were processed

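Total RNA from sorted cells was hybridised to 4 one-colour (Cy3) Agilent arrays. The intensity values are background-corrected spot signals that the authors obtained from the scans; per the file headers, the software was Agilent Feature Extraction in version 10.10.1.1, and the deposited value table equals them times 1 constant per array. All arrays shared 1 slide and 1 scan.

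Control spots and outlier spots were left out, and log2 signal was taken minus log2 of the array's 75th percentile. Probes were named through RefSeq accessions (GRCm38 gene table), and a gene's brightest probe was used. Genes well above background on both arrays of at least 1 fraction (13432) were fitted in R 4.3.3 by lmFit and eBayes of limma 3.58.1, without a block. Tests were two-sided, p-values were adjusted by Benjamini-Hochberg over all of them, and the threshold was 0.05. The fit has 2 residual and 2.77 prior degrees of freedom. The steps were tested on simulated data. The genes and lists were chosen with earlier results of these data known. Named with values on every array were the 16 tested genes of smallest p and the catalytic genes, and up to 2 genes of smallest p per related list; a gene that this rule named is not reported here. The number of arrays limits the precision.

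The alternatives were other scalings, normexp with an offset of 50, the deposited table, filters, probe rules, eBayes options, the replicate block and each array left out.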

Additional observations from a re-analysis of the deposited data

How the results depend on the processing

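Under 15 alternatives limma called 0 genes and 0 of the regulators, whose lowest adjusted p was 0.160, without RFP-positive replicate 1. Of 26 regulators followed one by one, 17 kept their sign in each alternative. Phf19 did in each but the filter to genes well above background on all 4 arrays, which left it out. Many of these alternatives could not turn a sign. The deposited table, the filters, the eBayes options and the replicate block leave a difference as it is. The probe rules do so for genes with a single probe. Of the 5 regulators at an unadjusted limma p under 0.05, only Pcgf3 stayed under it in each alternative that kept all 4 arrays. Cbx7 lost it under quantile normalization, scaling to the median, normexp, the trend fits, the replicate block, no filter and the probe of lowest identifier. Bmi1 lost it with the mean of a gene's probes (limma p 0.085), the probe of lowest identifier (0.196) and no filter (0.066). Mtf2 lost it with the mean of a gene's probes (0.167) and no filter (0.056), and Dnmt3a with no filter (0.058). With either RFP-negative array left out 0 regulators were under 0.05, and without RFP-positive replicate 2 they were Kdm6b and Tet1. With the mean of a gene's probes the sign turned for Pcgf2 (0.035), Kmt2d (0.23), Dnmt3b (−0.085) and Tet2 (−0.053), and with the probe of lowest identifier for Rbbp7 (−0.13), Dnmt3b (−0.38) and Tet2 (−0.30). With 1 array left out the difference ran from −0.019 to 0.34 for Dnmt1, from −0.065 to 0.76 for Dot1l and from −0.0059 to 0.35 for Kdm1a. Regulators lower without overlap numbered 8, but 5 under scaling to the median, 11 with the probe of lowest identifier and between 10 and 13 with 1 array left out. With 1 array left out, between 31.4% and 44.5% of all genes were lower without overlap. Regulators at least 2-fold apart numbered 0 with all 4 arrays. Only without RFP-positive replicate 1 were there any, Pcgf3 and Phf19, with differences of 1.42 and −1.24. The Phf19 value on RFP-positive replicate 2 was not well above background. A single array in a fraction makes such a gap easier to reach, and no share of all genes is given for it. Regulators higher without overlap ran from 11, with the mean of a gene's probes, to 21, without RFP-positive replicate 1. Of all genes, 17.9% and 36.5% were higher without overlap in these 2 settings. The replicate block also gave 0 calls, with 1039 genes at an unadjusted p under 0.05 against 872. The labels do not say whether arrays of the same replicate number shared a culture or a sort. Deviations from the fraction means correlated at 0.09 across genes for the replicates numbered 1. With 2 arrays a fraction this value cannot settle whether they were paired. Other causes were not tested.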

Other observations

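Other chromatin classes were read as well, where 18.8% of all genes tested were higher and 21.6% lower without overlap. Of 20 SWI/SNF subunits tested, which remodel nucleosomes, 2 were higher and 3 lower without overlap in RFP-positive cells, with a median difference of −0.09. Arid2, of the PBAF form of the complex, was at 2.16 and 2.32 in RFP-negative and 2.74 and 3.17 in RFP-positive cells, higher by 0.72 (SE 0.27, limma adjusted p 0.745), and Smarcc1, a core subunit, was higher by 0.41 (SE 0.24). Of 14 genes of H3K9 methylation tested, 2 were higher and 2 lower without overlap. Their genes of smallest p were Atf7ip, with a difference of −0.51 (SE 0.37), and Cbx5, which encodes heterochromatin protein 1 alpha, with a difference of 0.38 (SE 0.28).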
